A study of Mus musculus with 14 samples.

Results

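The transcripts described here are those of 10 genes that are defining products of the liver, measured in a fat depot: Alb, Ttr, Apoa1, Apoa2, Apoc3, Apoh, Fgg, Hpx, Cps1 and Cyp3a11. All 15 probe sets annotated to these genes were taken, of 22626 probe sets that are not controls. Apoa1 had 4, Ttr 3 and each other gene 1. The genes were chosen by their signals in these arrays, which were high in some of the UC and UU mice, so their levels and group differences are given as a description, without p-values. Of the 10, 8 encode proteins secreted into plasma, while Cps1 and Cyp3a11 encode enzymes that stay in the hepatocyte. RNA came from epididymal fat, a white fat depot beside the epididymis, of mice of the ICR strain, aged 3 weeks and labelled as males. CC mice (n = 5) were controls whose dams had free access to chow in pregnancy and suckling. UC mice (n = 5) had dams on 50% of the matched controls' food in pregnancy and on free access in suckling. UU mice (n = 4) had dams kept on that restriction through both. One total RNA sample per mouse was measured on 1 single-colour Affymetrix array, and the number of arrays limits the precision. Litter membership is not given, and the spread between arrays may not be that between independent litters.

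Hepatocytes make most plasma proteins. Albumin carries fatty acids and keeps up the osmotic pressure of plasma, transthyretin carries thyroxine and retinol-binding protein, and the apolipoproteins coat the particles that move lipid between tissues. Their genes are read in liver under hepatocyte nuclear factors (HNF1, HNF4) and C/EBP proteins. Fat makes some plasma proteins of its own, such as haptoglobin. Transthyretin is also made in choroid plexus, and apolipoproteins A-I and C-III in intestine.

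RefSeq promoter sequences were matched by symbol for 7 of the 10 genes, with 8 windows of 250 bases before an annotated start (build GRCm38.p6). They were searched on both strands for GTTAAT (part of an HNF1 site), TTGCNNAA (C/EBP), AAAGTCC (part of an HNF4 site) and TATAAA (the TATA box). The HNF1 letters were found in 1 of the 8 windows and in 6.43% of all 32851 windows, the C/EBP letters in 3 of 8 and 9.56%, the HNF4 letters in 2 of 8 and 3.58%, and the TATA letters in 2 of 8 and 12.4%. The 3 windows that hold at least 2 matches are shown, as those where the letters searched for can be seen together. They are those of Alb (chr5:90460620-90460869, + strand), Apoa2 (chr1:171221314-171221563, + strand) and Cyp3a11 (chr5:145879855-145880104, - strand), written 5′ to 3′ with the matches in capitals.
Alb: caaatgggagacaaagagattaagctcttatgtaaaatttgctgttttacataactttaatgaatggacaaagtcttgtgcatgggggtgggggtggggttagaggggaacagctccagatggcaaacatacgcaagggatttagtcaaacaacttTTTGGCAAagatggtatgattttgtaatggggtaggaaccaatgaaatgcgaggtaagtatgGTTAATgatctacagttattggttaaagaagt
Apoa2: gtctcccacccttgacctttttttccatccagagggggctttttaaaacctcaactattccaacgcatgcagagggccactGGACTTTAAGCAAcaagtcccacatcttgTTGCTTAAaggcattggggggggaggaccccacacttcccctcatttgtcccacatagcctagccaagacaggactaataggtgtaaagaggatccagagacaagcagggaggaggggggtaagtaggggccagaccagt
Cyp3a11: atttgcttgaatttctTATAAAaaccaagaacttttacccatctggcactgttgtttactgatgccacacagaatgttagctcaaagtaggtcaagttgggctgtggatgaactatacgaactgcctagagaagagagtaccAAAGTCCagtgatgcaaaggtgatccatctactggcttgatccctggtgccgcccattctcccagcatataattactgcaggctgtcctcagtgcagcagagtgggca
In Alb the C/EBP letters begin at -94 and the HNF1 letters at -32, counted from the annotated start. In Apoa2 the HNF4 letters, on the reverse strand, begin at -169 and overlap C/EBP letters that begin at -164, and a second C/EBP match begins at -140. In Cyp3a11 the TATA letters begin at -234 and the HNF4 letters at -108. The second Apoa2 window, before another annotated start, held only TATA letters, Hpx held 1 C/EBP match, and Fgg, Apoa1 and Apoh held no match. A match of letters describes the sequence and is no measured binding site.

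Every array carried adipocyte RNA, with Adipoq, the adiponectin gene, at 25263 to 88737. Arrays also differed in markers of other tissue. Gpx5, an epididymal secretory gene, was at 409.6 to 1155 in 4 arrays (CC 2, CC 4, UC 2 and UC 5), and at 5711 to 69624 in the other 10. Xist, which is transcribed in females, was at 14479 for CC replicate 2 and 9137 for UC replicate 5 and no higher than 80.1 elsewhere, so these 2 arrays go against the label of male. The log2 ratio of 3′ to 5′ signal of Gapdh and Actb, which is higher in degraded RNA, was 1.63 in UC replicate 1, 1.60 in UC replicate 4 and 2.11 in UU replicate 3, and 0.40 to 1.08 in the other 11.

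The liver transcripts were highest in 1 mouse of the UC group, lower but above CC levels in UC replicates 1 and 4, and less far above CC levels in most UU mice. The values are the scanner software's signals, 1 per probe set in arbitrary units on a linear scale. Means and differences are of log2(signal + 32), on which a difference of 1 is a doubling for bright probe sets and understates the change of dim ones. UC replicate 2 had the highest signal of all 14 arrays for each of the 15 probe sets, where it was highest for 5.35% of all probe sets. It exceeded the next array by over 2 times for each of the 15 as well, which held for 0.305% of all probe sets. The mean log2(signal + 32) over the 10 genes, each by its probe set of highest mean, was 8.69, 8.11, 8.64, 8.45 and 8.44 in CC replicates 1 to 5. It was 10.02, 12.41, 8.92, 10.15 and 8.56 in the UC replicates and 9.37, 8.91, 9.39 and 9.34 in the UU replicates. UC replicate 5 lay within the CC range, UC replicate 3 lay close to the lowest UU array, and each UU array lay above the highest CC array. CC replicate 2 and UC replicate 5, the lowest arrays of their groups, are also the 2 arrays with Xist signal. The UC group spanned 8.56 to 12.41, with a mean of 10.01 ± 1.50 (SD, n = 5), against 8.46 ± 0.23 in CC (n = 5) and 9.25 ± 0.23 in UU (n = 4). Without UC replicate 2 the UC mean was 9.41 ± 0.79 (n = 4). In bulk tissue, fewer cells of a type and less RNA per cell cannot be told apart.

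**Figure D1:**
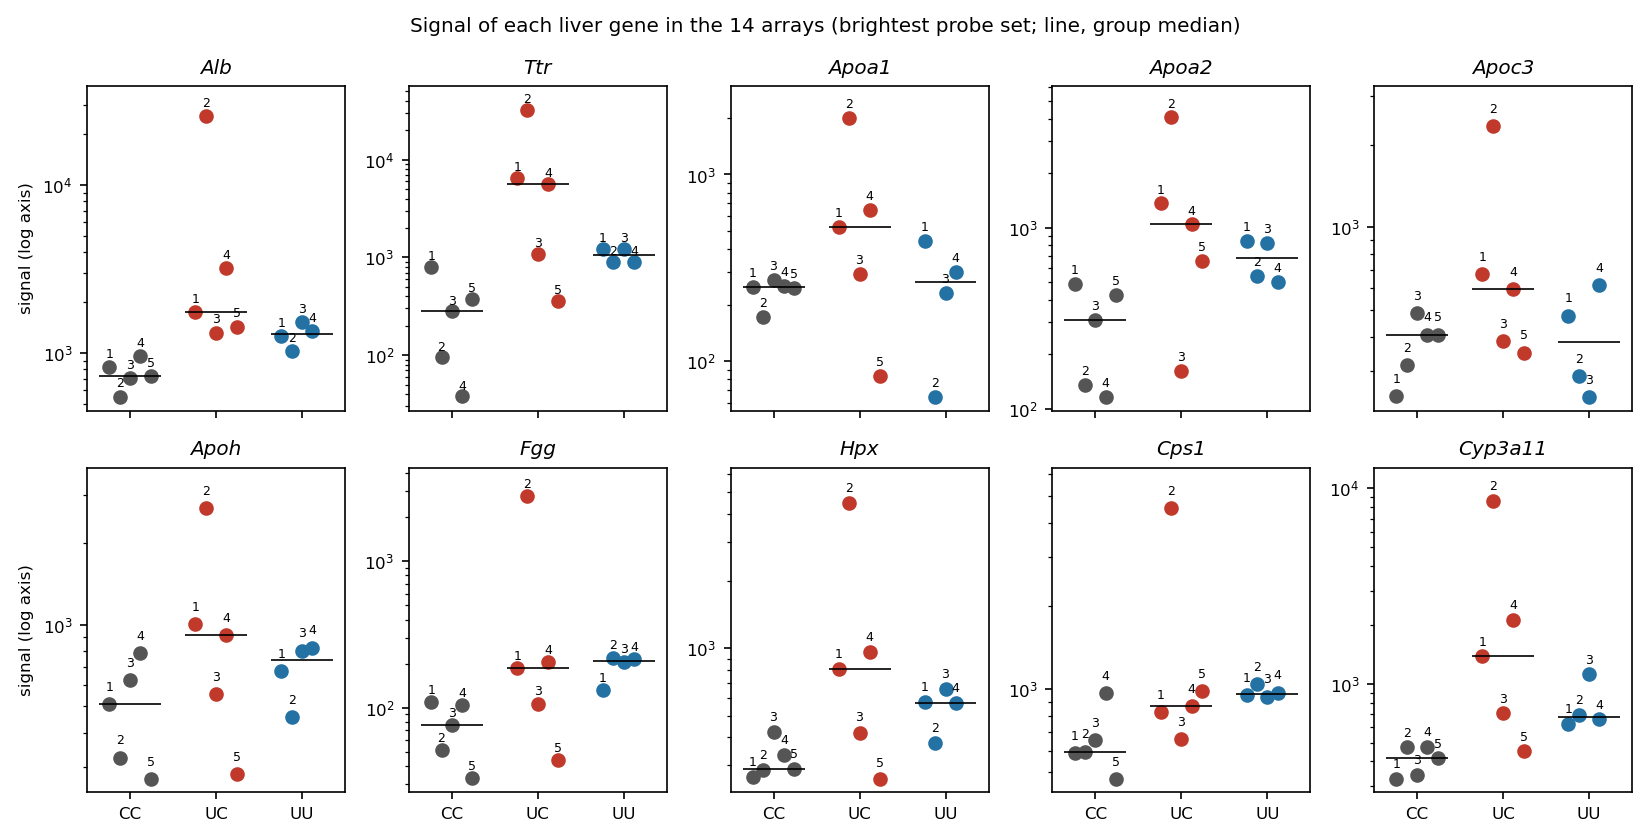
Signal of each of the 10 genes (log axis, each gene on its own scale) in the CC, UC and UU arrays, with replicate numbers above the points and the group median as a line. UC replicate 2 is the highest point in every panel, at 25660.3 for Alb.

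Albumin and transthyretin are carrier proteins. Alb had signals of 824, 550.4, 707, 962 and 725 in CC replicates 1 to 5, 1758, 25660.3, 1324, 3190.5 and 1434 in UC replicates 1 to 5 and 1262, 1022, 1520.4 and 1349 in UU replicates 1 to 4. Each UC and each UU array lay above the highest CC array, and UC replicate 2 was 8.04 times the next array, UC replicate 4. The log2 difference was 2.01 ± 0.58 (SE) for UC versus CC and 0.76 ± 0.61 for UU versus CC, and 1.25 for UC versus CC without UC replicate 2. Ttr, by its brightest probe set, was at 796, 94.6, 281, 38 and 375 in CC, 6491, 32323, 1079, 5663 and 361 in UC and 1228, 894, 1224 and 903 in UU, in the same order of replicates. All 4 UU arrays and UC replicates 1 to 4 lay above the highest CC array, while UC replicate 5 fell within the CC range. CC itself was wide, with a mean of 317 ± 300.4 (SD, n = 5). The log2 differences were 3.82 ± 0.91 for UC versus CC and 2.13 ± 0.96 for UU versus CC. A second Ttr probe set gave 3.40 ± 1.08 and 2.10 ± 1.15. The third, the dimmest, was at 1964 in UC replicate 2, 329.9 in UC replicate 4 and 22.8 to 61.4 in the other 12 arrays, so UC replicate 1 stood out on 2 of the 3 probe sets only. This probe set gave 1.46 ± 0.73 for UC and 0.12 ± 0.77 for UU versus CC, so the Ttr probe sets disagreed on UU.

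Among the apolipoproteins, Apoa2, a structural protein of high-density lipoprotein, was at 489, 136, 309, 117 and 428 in CC, 1364, 4068, 162, 1044 and 657 in UC and 848, 542, 827 and 504 in UU. Each UU array lay above the highest CC array, and so did each UC array but UC replicate 3. The log2 differences were 1.73 ± 0.60 for UC and 1.26 ± 0.64 for UU versus CC. Apoa1, the main protein of high-density lipoprotein, was at 249.6, 172, 272, 252 and 247 in CC, 522, 2007, 292, 646 and 83.4 in UC and 439, 64.6, 232 and 302 in UU by its brightest probe set. By this probe set the groups overlapped: UC replicate 5 and UU replicate 2 lay below every CC array, and the UU difference from CC was -0.09 ± 0.63. By a dimmer Apoa1 probe set each UC array lay above the highest CC array, at 93.8 to 2865 against at most 81.9. The 4 Apoa1 probe sets gave log2 differences of 0.87 ± 0.59, 2.25 ± 0.66, 1.15 ± 0.65 and 0.95 ± 0.55 for UC versus CC. For UU versus CC they gave -0.09, 1.0, 0.66 and 0.10, so the probe sets disagreed on UU. Apoc3, an inhibitor of triglyceride clearance whose gene lies next to Apoa1, was at 242, 316, 486, 406 and 407 in CC, 674, 2336, 385, 596 and 349.7 in UC and 477, 287, 241 and 617 in UU. Only UC replicates 1, 2 and 4 and UU replicate 4 lay above the highest CC array, with log2 differences of 0.83 ± 0.43 for UC and 0.06 ± 0.45 for UU. Apoh, a plasma glycoprotein that binds phospholipid, was at 509, 324, 626, 783 and 270.3 in CC, 1005, 2697, 554, 914 and 282 in UC and 676, 458, 803 and 823 in UU, with log2 differences of 0.80 ± 0.45 and 0.50 ± 0.48. UC replicate 5 lay between the lowest CC arrays, and the UU and CC ranges overlapped.

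Fgg, the gamma chain of fibrinogen, the clotting protein, was dim in all but 1 array. It was at 109, 51.4, 76.2, 104 and 33 in CC, 187, 2777, 106, 205 and 43.8 in UC and 131, 219, 206 and 214 in UU. UC replicate 2 was 12.7 times the next array, which was a UU array, and each UU array lay above the highest CC array. The log2 differences were 1.42 ± 0.69 for UC and 1.11 ± 0.73 for UU. Hpx, hemopexin, which binds free heme in plasma, was at 266, 285, 421, 333 and 288 in CC, 804, 4452, 419, 958 and 261 in UC and 573, 378, 654 and 569 in UU. UC replicate 5 was below every CC array and UU replicate 2 within the CC range, with log2 differences of 1.32 ± 0.52 and 0.71 ± 0.55.

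The enzymes of the list followed the same order of arrays in part. Cps1, the mitochondrial synthetase that begins the urea cycle, was at 586, 594, 655, 969 and 474 in CC, 824, 4522, 658, 870.2 and 982 in UC and 953, 1045, 940.0 and 971 in UU. The 4 UU arrays were close together, at 977 ± 46.8 (SD, n = 4), with CC replicate 4 among them. Apart from UC replicate 2, no UC array exceeded the highest UU array. The log2 differences were 0.84 ± 0.39 for UC and 0.59 ± 0.41 for UU, and 0.36 for UC without UC replicate 2. Cyp3a11, a cytochrome P450 that oxidises drugs and steroids, was at 327, 475, 342, 477 and 417 in CC, 1383, 8654, 705, 2132 and 451 in UC and 624, 695, 1117 and 661 in UU. All UU arrays and all UC arrays but UC replicate 5 lay above the highest CC array, with log2 differences of 1.85 ± 0.54 for UC and 0.85 ± 0.58 for UU. Cyp3a11 has near-identical Cyp3a neighbours, and its probe set may read them too.

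The 10 genes were high in the same arrays. UC replicates 1, 2 and 4 were the 3 highest arrays for 7 of the 10 genes and all 3 lay above the highest CC array for 9 of 10, the exception being Cps1. UC replicate 1 was above the highest CC array for 9 of the 10 genes, against 20.8% of all probe sets, UC replicate 2 for all 10, against 13.9%, and UC replicate 4 for 9, against 18.3%. For UC replicates 3 and 5 it was 4 and 3 genes, against 16.4% and 28% of all probe sets. The UU arrays, replicates 1 to 4, had 7, 6, 7 and 10 of the 10 genes above the highest CC array, against 26.9%, 17%, 28.1% and 24.8% of all probe sets. With each gene taken by its brightest probe set, every UU array lay above the highest CC array for 5 genes (Alb, Ttr, Apoa2, Fgg and Cyp3a11). Of the 15 liver probe sets 5 did so, against 3.45% of all probe sets. The dimmer Ttr probe sets did not. Every UC array lay above the highest CC array for Alb alone by the brightest probe sets. Over all 15 probe sets it was 2, that of Alb and a dimmer one of Apoa1, where 0.787% of all probe sets did so. These counts come from the levels that chose the genes and are a description. Over the 13 arrays without UC replicate 2, the rank correlation between genes had a median of 0.54 over 45 pairs and ran from -0.13 to 0.86, with 44 pairs above 0. With each group centred on its own mean the median was 0.46. The points share arrays and their scaling, and no test was made. Cyp3a11, Ttr, Apoh and Hpx had the highest median rank correlations with the other genes, at 0.67, 0.64, 0.64 and 0.64, and Cps1 and Apoc3 the lowest, at 0.23 and 0.28.

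**Figure D2:**
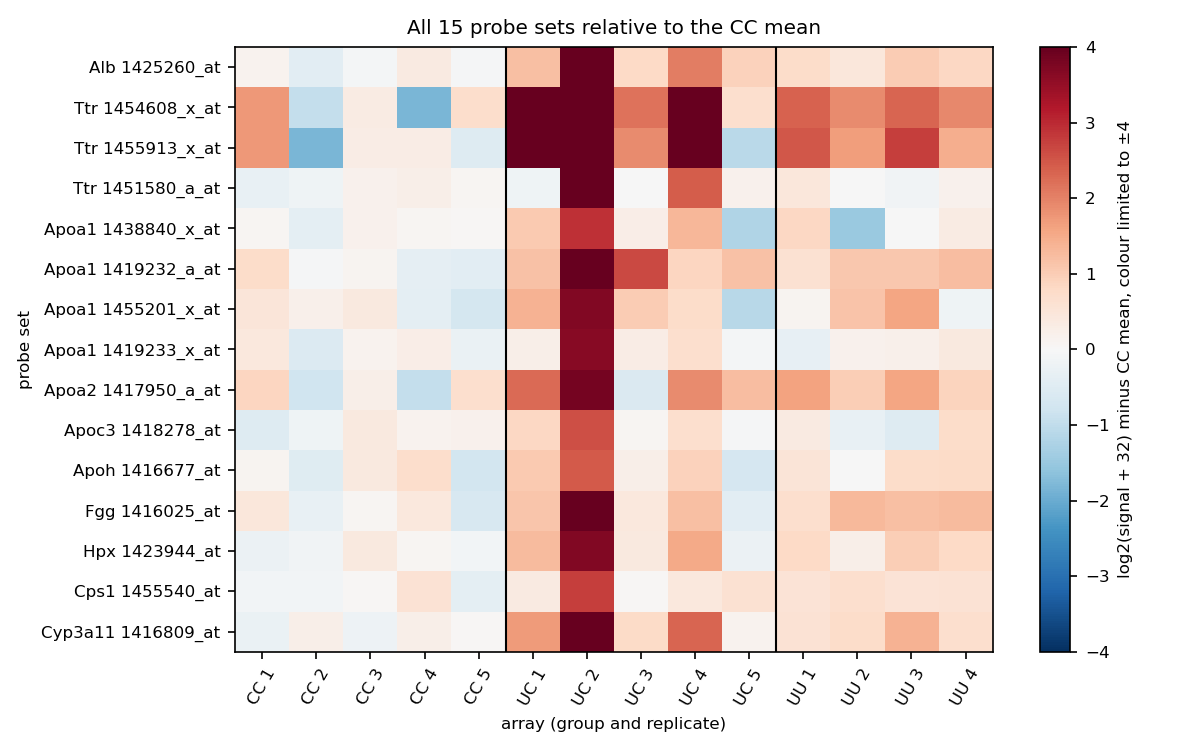
Level of the 15 probe sets (rows) in the 14 arrays (columns) as log2(signal + 32) minus the CC mean, with colour limited to 4 in either direction. The column of UC replicate 2 is red throughout, UC replicates 1 and 4 are red for most rows, and UC replicate 5 resembles the CC columns for most rows.

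The signal above the CC mean was expressed as a percent of that in UC replicate 2, with the CC SD on the same scale after the ± sign. This SD gives the spread between CC arrays only. It holds neither the spread of UU nor any error of the single array UC replicate 2. For UC replicate 4 it was 9.78% ± 0.611 for Alb, 4.83% ± 1.21 for Fgg and 5.55% ± 4.83 for Cps1, against 16.7% ± 0.939 for Ttr, 20.9% ± 0.861 for Cyp3a11 and 23% ± 2.17 for the brightest Apoa1 probe set. The other 3 Apoa1 probe sets gave 1.9% ± 0.896, 5.05% ± 2.89 and 5.01% ± 2.37, below the Alb value, so Apoa1 has no settled place in this order. The 3 Ttr probe sets gave 16.7%, 16.6% and 15.2%. For UC replicate 1, by the brightest probe sets, it ran from 4.03% ± 0.611 for Alb to 28.3% ± 4.45 for Apoa2. Ttr was at 19.3% and Cyp3a11 at 11.8%. The dimmer Ttr probe sets gave 19.7% and -0.40% in this array, and the dimmer Apoa1 ones 2.91%, 13.5% and 1.25%. The UU mean, by the brightest probe sets, reached 2.15% for Alb, 2.33% for Ttr, 4.35% for Fgg and 10.2% ± 4.45 for Apoa2. The signals include background, so the percentages hold on the signal scale only.

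**Figure D3:**
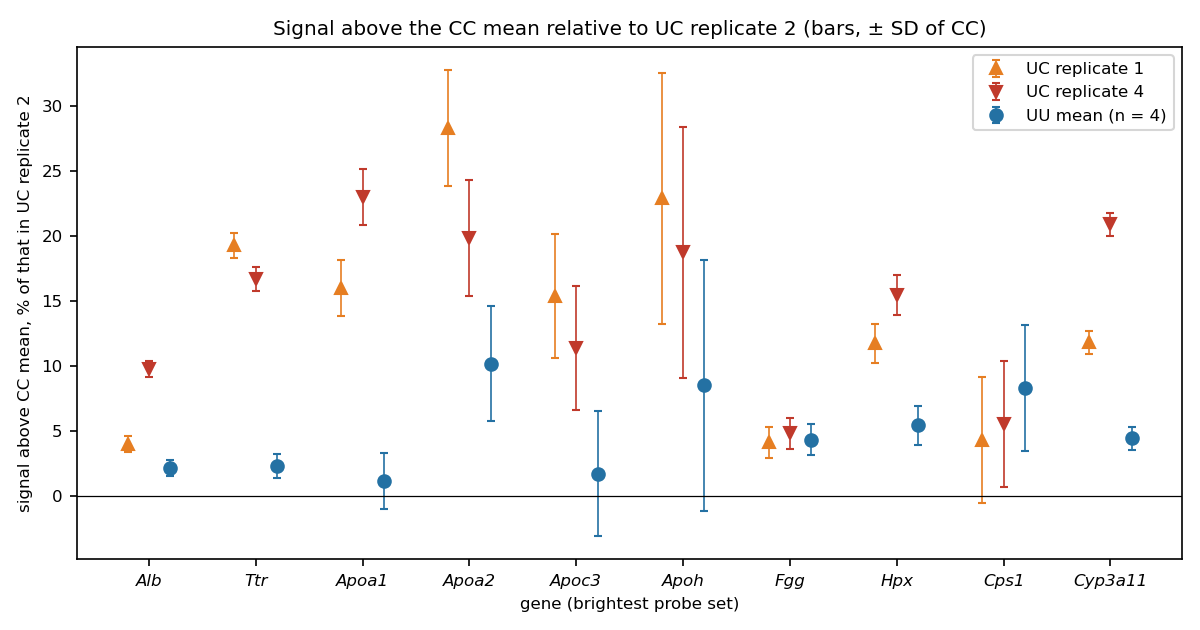
Signal above the CC mean in UC replicate 1, UC replicate 4 and the UU mean, as a percent of that in UC replicate 2, for each of the 10 genes, with bars of 1 SD of the CC arrays (n = 5) on the same scale. Each gene is shown by its brightest probe set. UC replicate 4 lies at 9.78% for Alb, 16.7% for Ttr and 20.9% for Cyp3a11, and the Apoa1 point is not shared by the other 3 Apoa1 probe sets.

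The group comparisons ask whether restriction in utero, alone or carried on through suckling, went with other levels in fat. Over all probe sets, limma (an empirical Bayes linear model, Benjamini-Hochberg adjusted) called 0 of 22626 (0%) in UC versus CC and 0 of 22626 (0%) in UU versus CC at an adjusted p under 0.05, with 1841 and 2876 at an unadjusted p under 0.05. In UC versus UU it called 16, all higher in UC (0.0707%, with 2897 at an unadjusted p under 0.05). None of the 15 liver probe sets was among the called ones in any comparison. The comparisons share arrays: UC versus CC and UU versus CC share CC, and UC versus UU shares an arm with each. All 10 genes had a log2 difference above 0 in UC versus CC, with a median of 1.37, where the median over all probe sets was -0.02 and 47.7% lay above 0. In UU versus CC, 9 of 10 were above 0, with a median of 0.73, where the median over all probe sets was 0.07 and 56.8% lay above 0. It was 8 of 10 with arrays centred on their median or quantile normalized, since Apoc3 then lay below 0 beside Apoa1, and with single arrays left out it ran from 8 to 10. In UC versus UU all 10 were above 0, with a median of 0.69 against -0.09 over all probe sets. The mean over the 10 genes was 1.55 for UC and 0.79 for UU, each versus CC, and 0.76 between UC and UU. Without UC replicate 2 it was 0.95 in UC versus CC and 0.16 in UC versus UU, with 6 of 10 genes then above 0 in the latter. With each array left out in turn, UU versus CC ran from 0.70 to 0.90. Without UC replicate 2 the UC difference from CC was 3.02 for Ttr, 1.23 for Cyp3a11 and 1.21 for Apoa2. It was 0.73 for Hpx, 0.58 for Fgg, 0.39 for Apoc3, 0.38 for Apoh and 0.36 for the brightest Apoa1 probe set. Versus UU, 4 genes then lay below 0, with -0.53 for Fgg, -0.23 for Cps1, -0.11 for Apoh and -0.05 for Apoa2.

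UC replicates 1 and 4, the UC arrays next highest in liver transcripts, are also 2 of the 3 arrays of highest 3′/5′ ratio. UC replicate 2 had a ratio of 1.0. UU replicate 3 had the highest ratio of all. Its liver level of 9.39 was the highest of UU, close to 9.37 and 9.34 in UU replicates 1 and 4. With the ratio as a covariate the mean over the 10 genes was 1.46 in UC versus CC and 0.71 in UU versus CC. Without the 3 arrays of highest ratio it was 1.50 and 0.74. Without UC replicate 2 as well, UC replicates 3 and 5 gave 0.28 versus CC, with 8 of 10 genes above 0, and -0.46 versus UU, with 1 of 10 above 0. In those 2 arrays, Alb was 0.87, Ttr 1.42 and Cyp3a11 0.46 above the CC mean on the log2 scale, and Fgg was 0.00 above it. The genes below the CC mean were Apoa1 by its brightest probe set (-0.47) and Apoh (-0.22). The dimmer Ttr probe sets gave 0.41 and 0.08. Without the 2 arrays with Xist signal, CC replicate 2 and UC replicate 5, the mean over the 10 genes was 1.82 in UC versus CC. It was 0.70 in UU versus CC and 1.12 in UC versus UU. The summed signal of the 8 epididymal genes on the array was 1679 in UC replicate 2, the lowest of UC, and ran from 1406 to 134717 in CC, to 118586 in UC and from 22286 to 112615 in UU. Without the 4 arrays low in these markers the mean over the 10 genes was 1.11 for UC and 0.66 for UU, each versus CC, and 0.45 between UC and UU. Other marker lists differed between the groups too, with none of their genes called. Of 9 skeletal muscle genes 0 were above 0 in UC versus CC (median -1.38) and 1 in UU versus CC (median -0.62), with CC replicates 2 and 5 at 2.42 and 2.0 from the CC mean and the other 3 CC arrays below it. Of 15 adipocyte genes 8 were above 0 in UC versus CC (median 0.03), 3 in UU versus CC (median -0.46) and 14 in UC versus UU (median 0.60). Their summed signal was 414165 to 630094 in CC, 443333 to 780734 in UC and 443286 to 509496 in UU, and 5 of the 15 were highest in UC replicate 2. The part of RNA quality, of sex, of epididymal and muscle tissue and of the share of adipocytes in the liver transcript levels was not tested.

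**Figure D4:**
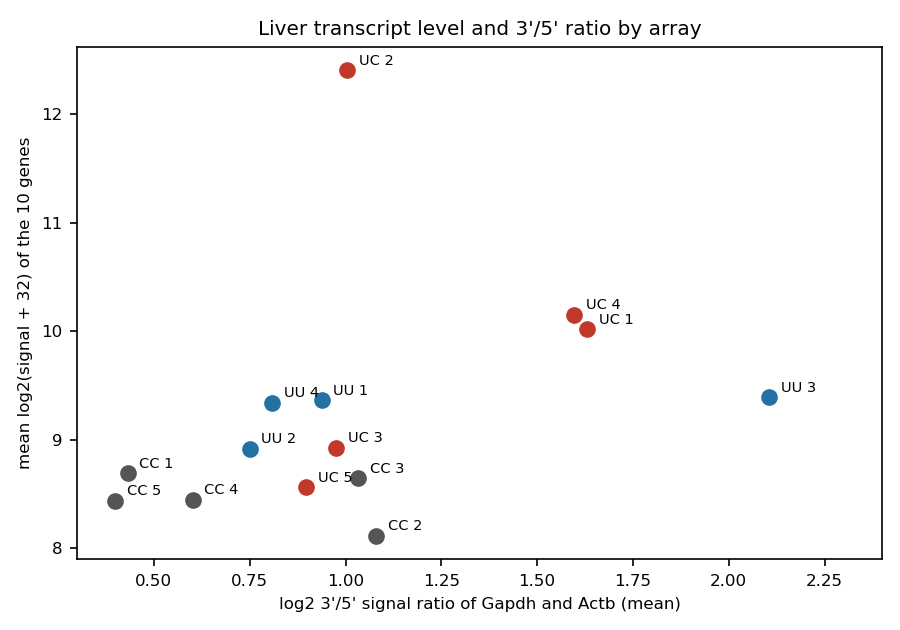
Mean log2(signal + 32) of the 10 liver genes against the mean log2 3′/5′ ratio of Gapdh and Actb for each array, coloured by group. UC replicate 2 (12.41) has a ratio of 1.0, and UC replicates 1 and 4 (10.02 and 10.15) have ratios of 1.63 and 1.60.

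Other liver genes were examined through lists. Of 46 further liver plasma protein genes on the array, 30 were highest in UC replicate 2, and of 37 liver enzyme genes, 16, where 5.97% of all 12393 genes were. The median level against the CC mean in UC replicate 2 was 1.59 for the plasma proteins and 1.0 for the enzymes, against -0.08 over all genes. In UC replicates 1 and 4 the plasma protein median was 0.43 and 0.57, in UC replicates 3 and 5 it was 0.36 and 0.64, and in UU arrays it ran from 0.15 to 0.45. UC replicate 5, within the CC range for the 10 genes, had the second highest plasma protein median. Of the plasma protein list 41 genes were above 0 and 5 below in UC versus CC (median 0.66), and 34 above and 12 below in UU versus CC (median 0.20), where all genes had medians of 0.00 and 0.09. For the enzymes it was 28 and 9 (median 0.55) and 26 and 11 (median 0.31). No gene of either list passed limma's adjusted threshold in any comparison.

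The brightest genes of these lists did not all follow albumin. Serpina1c, an alpha-1-antitrypsin gene of a near-identical family, was at 15702 in UC replicate 2 and at most 2023 elsewhere. Cyp2c29, a liver P450, was at 249 to 663 in CC, 688 to 3559.6 in UC and 705 to 1379.8 in UU, with every UC and UU array above every CC array (limma adjusted p = 0.477 and 0.25). Vtn, vitronectin, was at 2828 in UC replicate 2 and at most 1116 elsewhere, while Igfals, Uroc1, Fah, Fbp1 and Asl were at 1425, 1601, 6105, 1449 and 407 there, versus CC ranges of 699 to 1282, 2394 to 4620.1, 3074 to 5095, 708 to 1878 and 422 to 1343. Cyp2e1, an ethanol-oxidising P450, was bright in every array, at 30369 to 61712 in CC, 10369 to 59539.8 in UC and 29020.1 to 44130.3 in UU. C4bp, a complement inhibitor, was at 315 in UC replicate 2 and 18.1 to 9198 in CC, low in the 4 arrays that were low in epididymal markers.

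Markers of other liver cells and of the liver transcription factors did not stand out in UC replicate 2. None of 11 liver transcription factor genes and none of 10 genes of liver non-parenchymal cells was highest there, with list medians of 0.00 and -0.28 against the CC mean. Hnf4a, the hepatocyte nuclear factor, was at 813 in UC replicate 2 and 288 to 2290.5 in CC, and the other bright factors Creb3l3 and Nr5a2 were at 991 and 563, within their CC ranges. Of the non-parenchymal genes, Cd5l of Kupffer cells was at 421 and Stab2 of sinusoidal endothelium at 394, below or within CC ranges of 423 to 601 and 326 to 815. Reln was at 874. The factors and non-parenchymal genes named here lay at 394 to 991 in UC replicate 2, where the median signal of all probe sets was 593. Detection calls were not used, so whether the dimmer genes of these lists were above background is not known. Of 13 liver membrane and transport genes 1 was highest in UC replicate 2, Fabp1, the liver fatty acid-binding protein, and the brightest of the list, Abcb4, Tfr2 and Fgfr4, were at 1173, 1052 and 526, within or below the CC ranges. Afp, the fetal albumin relative, was at 31.1 in UC replicate 2 and at most 329 in any array, and Igf2 at 2419.9, within its CC range. Of the other lists, 1 of 12 enterocyte, 0 of 9 kidney, 0 of 10 pancreas and 1 of 5 choroid plexus genes were highest in UC replicate 2. Summed signals of the enterocyte genes were 1872 to 3111 in CC, 1868 to 2390.0 in UC and 2792 to 3314 in UU. Those of the choroid plexus genes were 754 to 1347, 615 to 1088 and 1138 to 1638. Whether tissue or RNA from liver took part in the liver transcript levels was not tested. Summed signals of the further plasma protein list were 12989 to 27806 in CC, 28475 to 70564 in UC and 19855 to 22193 in UU.

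**Figure D5:**
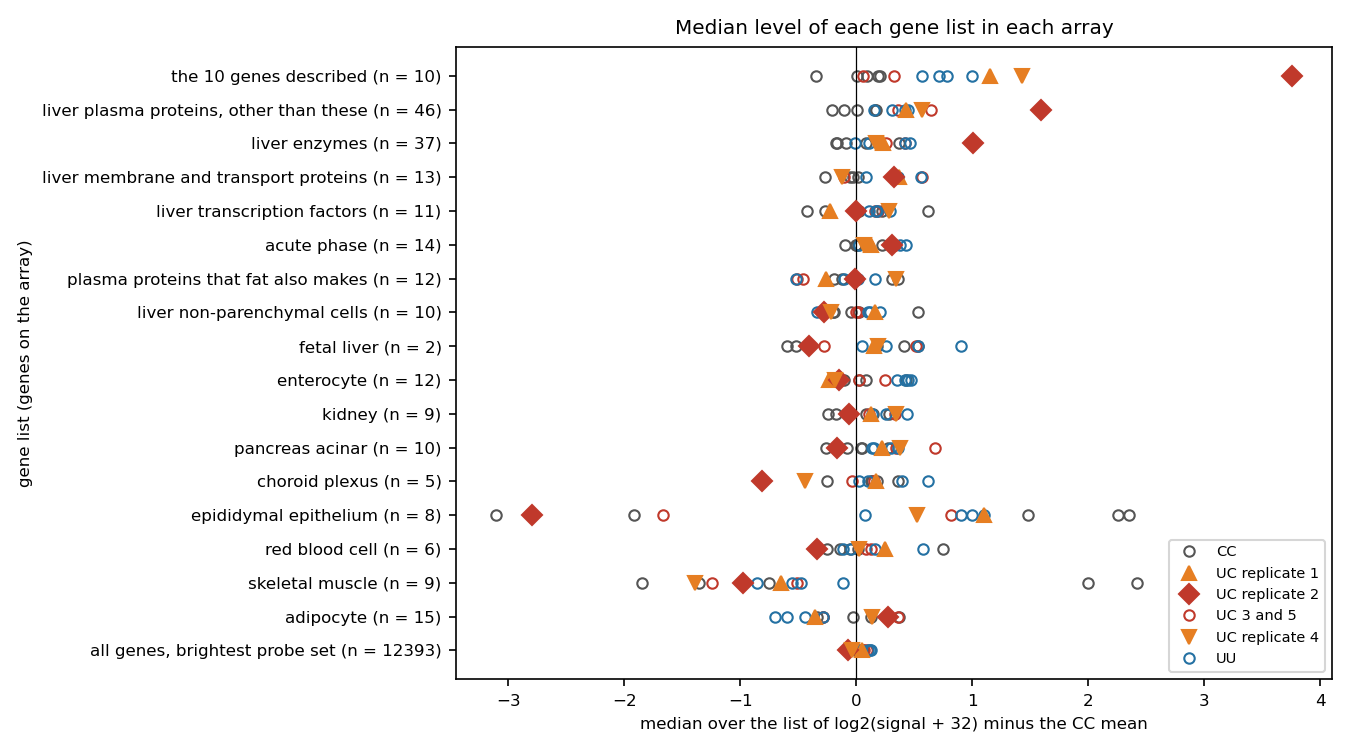
Median over each gene list of log2(signal + 32) minus the CC mean in each of the 14 arrays, with UC replicates 1, 2 and 4 as filled symbols and the number of genes on the array in parentheses. UC replicate 2 lies at 3.76 for the 10 genes, 1.59 for further liver plasma proteins and 1.0 for liver enzymes, and at 0.00 for liver transcription factors.

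Lists of plasma proteins that fat also makes and of acute phase genes were examined as well. Of 12 plasma protein genes of fat, 4 were above 0 and 8 below in UC versus CC (median -0.20) and 5 and 7 in UU versus CC (median -0.25), with none called. Apoe, the apolipoprotein that fat and macrophages make, was at 25537 ± 7672 (SD, n = 5) in the CC arrays, 13904 ± 3414 in UC (n = 5) and 17219 ± 9332 in UU (n = 4), so its mean was lower in UC than in CC. Clu and Lcn2 of this list, at 5987 and 2161 in UC replicate 2, were low in the 4 arrays low in epididymal markers. Of 14 acute phase genes other than Hpx and Fgg, 9 were above 0 in UC and 10 in UU (medians 0.11 and 0.21). The lists as drawn up share genes, so their counts are not separate. Fga, Fgb, Itih4 and Hamp are also in the further liver plasma protein list, and Hp and Lcn2 in that of fat. In UC replicate 2, 5 of the 14 acute phase genes were highest, 3 of them over 2 times the next array, and 3 of the 12 plasma protein genes of fat, 1 of them over 2 times the next array, where 5.97% of all genes were highest there. Among the brightest acute phase genes, Hp, haptoglobin, which fat makes too, was at 13759.9 in UC replicate 2 and 11412 to 22621 in CC, and Lbp at 1784 and 3711 to 6064.

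Among 7429 other genes in the brighter 60%, the 10 whose ranks over the 14 arrays were most like the mean of the liver genes were, in order, St6galnac2, Fga, Ccdc47, C230091D08Rik, Med21, Purb, Qk, Chd8, Cyp2c29 and H2aj. Their rank correlations ran from 0.84 to 0.90 over 14 arrays. They describe likeness of rank only. The pair that belongs to the liver lists, Fga and Cyp2c29, was highest in UC replicate 2, at 4289 and 3559.6, against at most 814 and 1379.8 elsewhere. Fga encodes the alpha chain of fibrinogen. Med21, of the Mediator complex, was at 1410.4 there against at most 1200.1. The other 7, led by the sialyltransferase gene St6galnac2 (1436 in UC replicate 2, 815 ± 270.5 (SD) over the CC arrays, 1748 ± 706 in UC and 1814 ± 759 in UU), were higher in another array than in UC replicate 2. Of the 10, 2 were also among the 10 most alike over the 13 arrays without UC replicate 2, St6galnac2 and Purb.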

How the data were processed

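Epididymal fat RNA of 14 mice was measured on 14 single-colour Affymetrix arrays. The authors deposited linear signal intensity values per probe set, which the submitters' processing notes trace to GCOS 1.3 and MAS5, and each array's mean signal without the highest and lowest 2% was 1499.86 to 1499.89. Detection calls were not used here. Symbols came from the platform annotation, with 20351 probe sets updated through RefSeq, 29 kept, 691 with several symbols and 1555 with none. The 64 control probe sets were left out. Groups were those of the labels. Values were taken as log2(signal + 32) and fitted for all 22626 probe sets on 14 arrays, without a filter, with limma 3.58.1 in R 4.3.3 (lmFit, eBayes with trend, two-sided, Benjamini-Hochberg under 0.05). The code was also run on simulated data with equal spread in all groups. That run cannot judge the fit under the wider spread of the liver genes in UC. Scaling to a common mean can hide a shift shared by all genes. Within groups, arrays correlated at 0.876 to 0.951 on the log2 scale, and no pair was identical. Depth does not apply to arrays, whose number limits the precision. Of the 10 genes, 7 passed a filter on the dimmest 40% of genes (not Apoa1, Apoc3 and Fgg), which served as an alternative. The members and lists were chosen with earlier results of these data known. All probe sets of the 10 genes are named, and of each list the brightest by mean: up to 6 for liver plasma proteins and enzymes, up to 3 otherwise. Alternatives were the pseudocount, filter, scaling, trend, array weights, threshold, replicate block, single arrays left out and, added after seeing the data, arrays left out for 3′/5′ ratio, Xist or epididymal markers and the ratio as a covariate.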

Additional observations from a re-analysis of the deposited data

Results flagged for a closer look

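In 48 group-wise sets of values (15 probe sets and the mean of the 10 genes, in 3 groups, on the log2 scale), 5 had a highest or lowest array whose gap to its neighbour took a larger share of the group's range than Dixon's 95% critical value for its number of arrays. Chance flags about 1 in 20 groups, and the probe sets of 1 gene are not independent. In UC, replicate 2 stood above the others for Cps1 (share 0.796) and for 1 of the 4 Apoa1 probe sets, the dimmest (0.796). For most other probe sets UC replicates 1 and 4 lay between it and the rest, so the gap took less of the range. In CC, replicate 2 stood below the others for the brightest Apoa1 probe set (0.789). In UU, replicate 1 stood below the others for Fgg (0.873) and replicate 2 for the mean of the 10 genes (0.899).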

How the results depend on the processing

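None of the 15 liver probe sets was called in any of 96 combinations of comparison and setting. The filters on dim probe sets and on dim genes left 8 and 7 of the 10 genes, whose mean kept its direction. Apoa1, below 0 in UU versus CC, was dropped by both. The UU versus CC mean was then 0.86 and 0.97, against 0.79 over all 10. The mean over the 10 genes kept its direction with the other pseudocounts and scalings and with any single array left out. With single arrays left out it ran from 0.95 (without UC replicate 2) to 1.91 (without UC replicate 5) in UC versus CC, from 0.70 to 0.90 in UU versus CC and from 0.16 (without UC replicate 2) to 1.12 in UC versus UU. Without UC replicates 1, 2 and 4 and UU replicate 3 it was 0.28 in UC versus CC and -0.46 in UC versus UU, where the direction turned. The setting leaves 2 UC arrays, and the cause was not tested. Of 345 single values per comparison, 3 in UC versus CC, 8 in UU versus CC and 20 in UC versus UU changed sign.

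The number of probe sets called over the array was unstable, and the cause was not tested. In UC versus CC it was 1 in place of 0 with arrays centred on their median, quantile normalized, without the trend, with array weights, at an adjusted p under 0.1, without the 2 arrays with Xist signal and without the 3 arrays of highest 3′/5′ ratio and UC replicate 2, and 2 without the 4 arrays low in epididymal markers. Single arrays left out gave 0 to 1 (1 without CC replicate 2). In UU versus CC it was 1 with 1 probe set per gene, 2 without the trend, 11 with array weights, 13 at an adjusted p under 0.1, and 1 without the Xist arrays or the 4 arrays low in epididymal markers. Single arrays left out gave 0 to 3 (2 without CC replicate 1, 1 without CC replicate 2, 3 without UU replicate 1). In UC versus UU it was 60 in place of 16 without the dimmest 40% of probe sets, 63 with 1 probe set per gene and that filter, 73 with median centring, 116 at an adjusted p under 0.1, 113 when the 3′/5′ ratio was a covariate, 2 from those 2 groups alone, 0 without the trend, 0 without the 3 arrays of highest ratio (0 also without UC replicate 2), 3 without the Xist arrays and 1 without the 4 arrays low in epididymal markers. Single arrays left out gave 0 to 69: 0 without each of CC replicates 3 and 5, UC replicates 2, 4 and 5 and UU replicate 2, 1 without CC replicate 1, 2 without UU replicates 1 or 4, 5 without UU replicate 3, 25 without CC replicate 2, 47 without UC replicate 3 and 69 without UC replicate 1.

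The labels give replicate numbers in each group. Over 13 pairs of equal number, deviations correlated at -0.15 to 0.23, with 5 above 0.1, and 3 of 14 arrays correlated best with their own number, so the numbers were not taken to pair mice. With the replicate block, 5 probe sets were called in UU versus CC and 48 in UC versus UU, and the mean over the 10 genes was 1.55 in UC versus CC, 0.60 in UU versus CC and 0.95 in UC versus UU.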

Other observations

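A count chosen after the values were seen took genes at a signal of at least 1000 in UC replicate 2 and over 4 times the next array. Of 12393 genes 18 met it: 6 of the 10 liver genes, 8 genes of the other liver lists and 4 more. The 8 were Akr1c6, a hydroxysteroid dehydrogenase gene (1829, 22.7 times the next array), Fabp1 (6588, 9.48 times), Ambp (2125), the fetuin gene Ahsg (2954), Serpina1c (15702), Mug1 (2239), Fga (4289) and Hrg (1088). The 4 others, on none of the liver lists, were Cyp3a25 (1008), the carboxylesterase gene Ces1c (1845), the retinol dehydrogenase gene Rdh7 (1137) and serum amyloid P, Apcs (1112). Apcs is on the acute phase list. The liver lists do not hold every liver gene.

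Some liver plasma protein genes took another course. Serpina1b, a second alpha-1-antitrypsin gene, was at 1629 to 10924 in CC, 6434 to 12551 in UC and 36.2 to 2367 in UU, a log2 difference of 3.84 ± 0.77 (SE) for UC versus UU (limma adjusted p = 0.0662), with each UC array above each UU array. Pzp, an alpha-2-macroglobulin relative, was at 21.8 to 1811 in CC, 514 to 4469 in UC and 2591 to 3753 in UU, with each UU array above each CC array (log2 difference 2.87 ± 0.79, limma adjusted p = 0.185). Hp gave -1.77 ± 0.35 for UU versus CC (limma adjusted p = 0.107), with 2598 to 8507 in UU, below each CC array. UC replicate 2 also had the highest signal of the fatty acid synthase gene Fasn, 54610.4, followed by UC replicate 4 (52131), UC replicate 5 (39272), UC replicate 3 (37705) and UU replicate 2 (25427).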
